A study of Zea mays with 217 samples.

Results

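The genes described here are maize genes listed as targets of both GLK1 and GLK2, a pair of GOLDEN2-LIKE transcription factors (TFs). Each is listed for 20 or fewer of the 104 profiled TFs. They were chosen from a deposited list of TF-target interactions, and a TF that does not list a gene may still bind it. A gene was taken when GLK1 and GLK2 both listed it with a p-value of 0.01 or less, when 20 or fewer of the 104 profiled TFs listed it, and when it did not itself encode a profiled TF. This gave 135 genes of 20067 target genes. The study expressed 104 leaf TFs, each with a biotin tag and each from a plasmid, in mesophyll protoplasts, wall-less leaf cells, of B73 maize seedlings. Tagged protein with its DNA was pulled down with streptavidin and sequenced (ChIP-seq) in 217 libraries, 3 of them for GLK1 and 2 for GLK2, with input DNA as the background for calling peaks. The authors scored each gene for each TF with TIP (target identification from profiles), which weighs binding around a gene's start by the average profile of that TF. The table gives 1 p-value for each TF and gene with the replicates of the TF pooled, so no value below has a replicate error, the depth behind it is unknown, and no test between groups was made.

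GLK TFs belong to the GARP group of MYB-related DNA-binding proteins. They are known for switching on nuclear genes of the chloroplast, among them genes of chlorophyll synthesis and of the light-harvesting antenna. In maize the GLK pair is known for chloroplast development in mesophyll and bundle sheath cells. All binding here was measured in mesophyll protoplasts with plasmid-expressed protein, and peaks at a TF's own locus had been removed.

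GLK1 listed 1193 genes in all and GLK2 listed 2069, and 886 genes were on both lists. With p of 0.01 or less, GLK1 listed 852 genes (4.25% of all target genes) and GLK2 listed 1369 (6.82%). Both did so for 593 genes (2.96%), and 137 of these (23.1%) were listed by 20 or fewer TFs, although 78.5% of all target genes were. The genes of the profiled TFs COL2 and COL7 were then left out, which gave the 135 members, 0.859% of the 15710 target genes that 20 or fewer TFs list and that encode no profiled TF. The remaining shared targets, 451 genes once profiled TF genes were left out, were listed by 21 to 99 TFs, with a median of 59. The GLK p-values and the number of listing TFs chose the members, so both are descriptions here.

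The members were not at the bottom of the range of listing TFs. They had a median of 11 listing TFs, the GLKs included (quartiles 7 and 15.5, range 2 to 20), against a median of 3 (quartiles 1 and 7) for the other genes of 20 or fewer TFs. There were 6 members that only the GLKs listed, 10 members with 3 listing TFs, and 4 members at the upper limit of 20. A further 6 genes with 21 listing TFs met both p thresholds and so lay just outside.

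The members closest inside the limit of 0.01 for GLK1 were, with their TIP p-values, Zm00001d043233 (0.00827), Zm00001d015724 (0.00819) and Zm00001d032025 (0.00714). The closest genes outside were Zm00001d014524 (0.0105), Zm00001d042478 (0.0112) and Zm00001d047689 (0.0113). For GLK2 the closest members inside were Zm00001d034300 (0.00922), Zm00001d046652 (0.0085) and Zm00001d032025 (0.00841). The values run on across the limits without a gap, and Zm00001d032025 stands near the limit for both TFs. Zm00001d026483 just missed the GLK2 limit at 0.0101, although only the GLKs listed it and its GLK1 p-value was 1.1e-09. The next outside were Zm00001d034324 (0.0106) and Zm00001d043898 (0.0117).

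For GLK1 the -log10 p of the members had a median of 4.58 (quartiles 2.83 and 11.1) and a maximum of 107. For GLK2 the median was 3.95 (quartiles 2.79 and 6.28) and the maximum was 50.9. Very small p-values were more frequent for GLK1. The -log10 p was over 10 in 40 members for GLK1, in 16 for GLK2 and in 9 for both, and it was over 20 in 16, 5 and 3 members. Per gene the median difference, GLK1 minus GLK2, was 0.81 (quartiles -0.97 and 6.49), against 0.13 over all 886 genes listed by both. GLK1 had the smaller p-value in 87 of the 135 members (64.4%), against 53.3% of the 886 genes.

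TIP p-values are relative to each TF's own profile, so the rank of a gene within each TF's list was also compared. As a percent of its list, where a low percent is a strong target, the members had a median rank of 34.0 for GLK1 and 31.1 for GLK2. The median difference in rank, GLK1 minus GLK2, was 0.078 percentage points, and GLK1 ranked the gene higher on its list in 66 of 135 members (48.9%). Over all 886 genes listed by both, the median difference was 3.90 percentage points and GLK1 ranked the gene higher in 40.5%. By rank the members were thus level between the GLKs, while all shared genes stood higher on the GLK2 list. The lists differ in length, 1193 genes for GLK1 and 2069 for GLK2, so the 886 shared genes fill more of the GLK1 list. Their rank percents must therefore spread farther down that list, and neither measure puts the GLKs on an equal footing. Over the members, Pearson's r between the -log10 p of GLK1 and of GLK2 was 0.53 and Spearman's rho was 0.36. Over all 886 genes listed by both, r was 0.71 and rho was 0.42. Of the 886 genes, 1 had a GLK1 p-value of 0, which was set to the smallest above 0 and enters r as a -log10 p of 289. The p thresholds of the rule narrow the range in the members, so the correlations of both sets are not on an equal footing. These correlations describe genes, which share the same libraries and are not replicates.

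**Figure D1:**
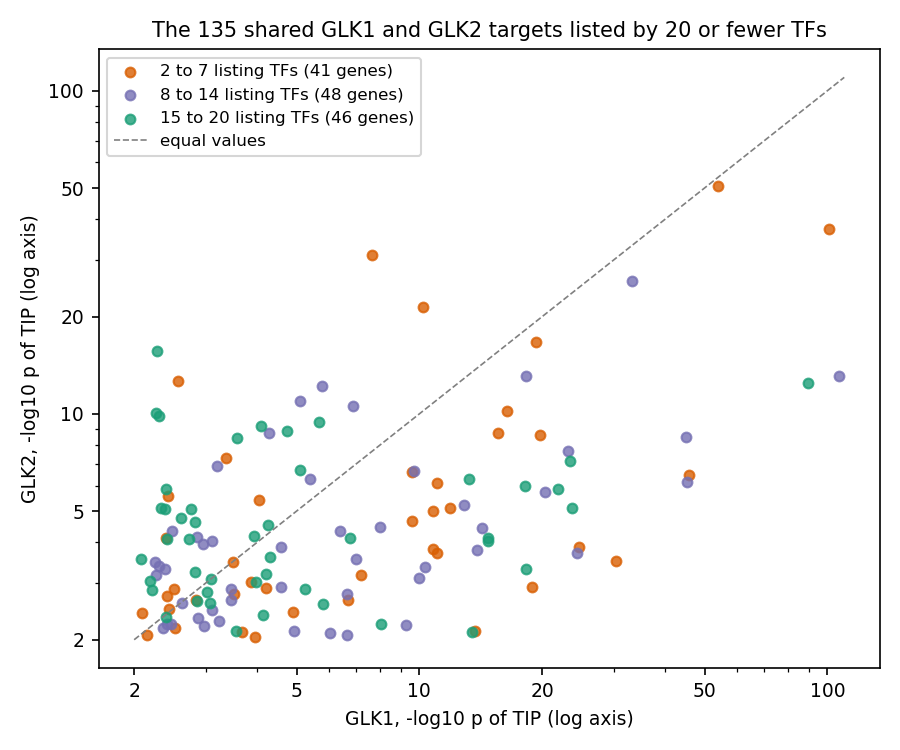
Each point is 1 of the 135 shared targets, with the -log10 p of TIP for GLK1 on the x axis and for GLK2 on the y axis, both on log axes, and colours give the number of listing TFs. Most points lie below 10 on both axes, the largest GLK1 value is 107 and the largest GLK2 value is 50.9, and genes with 2 to 7 listing TFs are found over the whole range.

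The member with the largest summed -log10 p was Zm00001d001857, which GLK1 listed with a TIP p-value of 1.9e-101 (place 9 of its list) and GLK2 at 5.1e-38 (place 14). Only 3 other TFs listed it, namely MYBR26 at 1.7e-12, MYBR43 at 0.016 and EREB102 at 0.030. Zm00001d043193 had the smallest GLK1 p-value of the members, 2.8e-107 (place 8), with 8.7e-14 for GLK2 (place 83). It had 12 listing TFs, and the strongest after the GLKs was the basic helix-loop-helix TF bHLH47 at 1.8e-04. Zm00001d011436 had the smallest GLK2 p-value, 1.4e-51 (place 7), and 9.2e-55 for GLK1 (place 19). The strongest of its 4 other TFs was the CONSTANS-like TF COL8 at 3.7e-07. All 3 genes were thus high on the lists of both GLKs, and no other TF listed them with a p-value below that of MYBR26 on Zm00001d001857.

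Zm00001d046786 was listed by 19 TFs, with 2.8e-90 for GLK1 and 3.5e-13 for GLK2. MYBR26 (1.5e-15) and COL8 (1.8e-13) had smaller p-values on it than GLK2 had, and COL2 followed at 9.4e-09. Zm00001d002661 had 6.9e-34 for GLK1 and 1.8e-26 for GLK2. Its 8 other TFs were led by bZIP104 at 6.0e-14 and MYBR26 at 1.6e-05, bZIP104 being one of the basic leucine zipper TFs. Zm00001d017081 had 1.1e-45 for GLK1 and 3.3e-09 for GLK2, and the strongest of its 6 other TFs was MYBR43 at 0.0051. The pattern of co-listing TFs thus differed even among the strongest members, and Zm00001d046786 alone had 5 COL TFs.

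The other 6 of the 12 strongest members had 3 to 9 listing TFs. Zm00001d021370 (2.0e-46 for GLK1, 3.3e-07 for GLK2) was also listed by MYBR26, COL8, COL2 and ELF3, the last a part of the circadian evening complex. Zm00001d023427 (4.9e-46 and 7.1e-07 in the same order) was a stronger target of COL8, at 1.4e-17, than of GLK2. Zm00001d026603 (4.8e-20 for GLK1, 2.0e-17 for GLK2) was nearly level for both GLKs and had 3 other TFs, none of them COL or MYB-related. Zm00001d025837 (4.7e-31 for GLK1, 3.1e-04 for GLK2) was listed by GRAS23 at 1.1e-05 and by ZIM3. Zm00001d029679 and Zm00001d019171 were the members of this group that GLK2 led.

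The 6 members that leaned farthest to GLK1 by difference of -log10 p, GLK1 minus GLK2, all belonged to the 12 strongest. They were Zm00001d043193 (93.5), Zm00001d046786 (77.1), Zm00001d001857 (63.4), Zm00001d021370 (39.2), Zm00001d023427 (39.2) and Zm00001d017081 (36.5). The lean to GLK2 was smaller at its largest. Zm00001d029679 (-23.4) had 2.1e-08 for GLK1 and 9.2e-32 for GLK2, with COL18 at 4.6e-06 as its strongest other TF. Zm00001d012700 (-13.3) had 0.00528 for GLK1 and 2.5e-16 for GLK2, and Zm00001d019171 (-11.1) had 6.0e-11 for GLK1 and 4.6e-22 for GLK2, with EREB209 as its only other TF. Zm00001d007280 (0.00277 for GLK1, 2.4e-13 for GLK2), Zm00001d039732 (0.0055 and 8.2e-11) and Zm00001d036797 (0.00502 and 1.5e-10) were strong for GLK2 and close to the limit for GLK1. Differences taken from values chosen by both thresholds are a description only.

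GLK1 and GLK2 alone listed 6 members. In order of strength these were Zm00001d042153 (3.7e-17 for GLK1, 5.7e-11 for GLK2), Zm00001d019861 (1.3e-12 and 8.0e-06), Zm00001d049097 (1.5e-11 and 1.5e-04), Zm00001d030848 (6.6e-08 and 6.7e-04), Zm00001d034300 (1.1e-04 and 0.0092) and Zm00001d019895 (2.1e-04 and 0.0076). GLK1 had the smaller p-value in all 6. None of them was among the 12 strongest members. The identifiers of the members are those of the B73 RefGen_v4 annotation, and none of the 135 matched the reference gene table used here, so no name or function is given for any of them.

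A GLK was the strongest TF of most members. The smallest p-value of a member was that of GLK1 in 64 and of GLK2 in 30 genes, 94 of 135 in all (69.6%), against 148 of the 451 shared targets of more than 20 TFs (32.8%). Among all target genes of 20 or fewer TFs the share was 1.87%, but the p thresholds of the rule raise it for the members, so nothing is read from that difference. By rank within each TF's list, a GLK came out strongest in 71 members (52.6%), 37 for GLK1 and 34 for GLK2, against 72 of the 451 genes (16.0%) and a background of 1.36%. More listing TFs also give more chances for another TF to be strongest. MYBR26 was the strongest by p-value in 7 members, COL8 in 6, TCP23 in 4 and COL2 in 3, and 50 of the 129 members with more than 2 listing TFs had the GLKs as the 2 strongest.

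TFs other than GLK1 and GLK2 listed the members 1237 times, and 101 of these TFs listed at least 1 member, with a median of 10 members per TF. Only MYBR64 listed none. Its list of 462 genes holds 23 of the genes of 20 or fewer TFs (0.146%), and a count of 0 of 135 allows a share of up to 2.70% by the exact binomial interval. Because genes with many listing TFs are listed more often by any TF, each count was set beside an expected number. This is the number of members a TF would list if, at each number of other listing TFs, it listed the same share of members as of the other genes of 20 or fewer TFs. The ratio of listed to expected is called the co-listing ratio. Its 95% exact binomial interval covers counting over genes only. With the number of other listing TFs held fixed, the expected numbers of all these TFs add up to the same 1237 listings. An excess for some TFs therefore comes with a deficit for others. Of the 95 TFs expected to list at least 5 members, 40 had a ratio above 1, 7 had a ratio of 2 or more and 18 had a ratio of 0.5 or less.

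CONSTANS-like TFs carry B-box zinc fingers and a CCT domain, and the founding member controls flowering by day length in Arabidopsis. COL2 listed more members than any other TF outside the GLK pair, 52 of 135 (38.5%, 95% interval 30.3 to 47.3), against 7.84% of all genes of 20 or fewer TFs. The expected number was 18.7, which gives a co-listing ratio of 2.79 (2.19 to 3.42). Counting only pairs of 0.01 or less, COL8 listed 34 members, COL2 31 and MYBR26 29. COL8 came next with 45 members (33.3%, 25.5 to 42.0), a background of 8.27% and a ratio of 2.62 (2.00 to 3.30). COL18 listed 35 members (25.9%) with a background of 6.79% and a ratio of 1.98 (1.43 to 2.61). It is counted with the COL TFs here by its name, although its family label is Orphan and not C2C2-COL. COL3 listed 27 with a background of 6.23% and a ratio of 1.66 (1.13 to 2.31). COL13, with 18 members, a background of 4.4% and a ratio of 1.45, and COL7, with 14 members, a background of 5.04% and a ratio of 1.02, had intervals that include 1. Over every listed pair the COL TFs thus ran from near 3 times the expected number down to the expected number. Counting only pairs of 0.01 or less, COL18 listed 11 members, COL3 8, COL13 7 and COL7 1. The ratios at that limit were 3.78 for COL2, 3.16 for COL8, 1.52 for COL18, 1.27 for COL3, 1.53 for COL13 and 0.33 for COL7.

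At least 1 of the 6 COL TFs listed 78 members (57.8%, 49.0 to 66.2), counting every listed pair. That compares with 21.5% of all genes of 20 or fewer TFs and an expected 35.5%. COL listings made up 15.4% of all other listings of the members, and 7.53% over all genes of 20 or fewer TFs. By number of COL TFs, 57 members had none, 27 had 1, 18 had 2, 13 had 3, 12 had 4, 7 had 5 and 1 had all 6. COL2 and COL8 shared 32 members, which is 61.5% of the members of COL2 and 71.1% of those of COL8. COL3 was nearly nested in COL2, with 22 shared members or 81.5% of those of COL3. COL8 and COL2 listings of members had higher -log10 p than their listings elsewhere, and those of the other COL TFs did not. The median -log10 p was 3.15 in members and 2.24 in the other genes of 20 or fewer TFs for COL8, and 2.36 in members and 1.86 in the others for COL2. COL18 was level at 1.79 in both, and COL3 (1.64 in members, 1.76 in the others), COL13 (1.69 and 1.73) and COL7 (1.54 and 1.59) were slightly lower in the members.

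MYB-related (MYBR) TFs mostly have a single MYB repeat and include clock proteins in Arabidopsis. The highest co-listing ratio of all TFs expected to list at least 5 members was that of MYBR26. It listed 34 members (25.2%, 18.1 to 33.4), against a background of 3.12% and an expected 6.91, a ratio of 4.92 (3.54 to 6.53). MYBR43 listed 40 members (29.6%) with a background of 4.04% and a ratio of 4.02 (2.99 to 5.16). MYBST1 also listed 40 (29.6%), with a background of 4.52% and a ratio of 3.50 (2.61 to 4.50), and MYBR17 listed 30 (22.2%), with a background of 4.98% and a ratio of 2.44 (1.70 to 3.31). The rest of the family was less frequent. MYBR32 listed 16 (background 3.16%, ratio 1.88), MYBR41 listed 17 (background 5.88%, expected 15.5) and MYBR87 listed 5 (background 3.28%, ratio 0.59).

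MYBR26 had the highest median -log10 p on the members among the MYBR TFs that listed any. The median was 4.84 in the members (quartiles 3.88 and 6.93), against 3.17 in the other genes of 20 or fewer TFs, and 29 of its 34 members had p of 0.01 or less. MYBR43 had medians of 1.96 in members and 1.81 in the others, with 18 of 40 at 0.01 or less. MYBST1 had 1.88 in members and 1.67 in the others, with 16 of 40. By these medians MYBR43 and MYBST1 had p-values on the members near those they had elsewhere, whereas MYBR26 had smaller ones on them. Counting only pairs of 0.01 or less, the co-listing ratio was 5.37 for MYBR26, 4.19 for MYBR43 and 5.19 for MYBST1. The ratio of MYBST1 was thus higher at that limit than the 3.50 over every listed pair. In 7 members MYBR26 was the strongest TF of all. Among these, Zm00001d032197 had 5.6e-38 for MYBR26 beside 2.0e-15 for GLK1 and 7.5e-05 for GLK2. Zm00001d035317 had 4.6e-17 for MYBR26 beside 7.7e-06 for GLK1 and 2.0e-07 for GLK2, both genes being named after their values were seen.

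MYBR26 and MYBR43 shared 26 members, 76.5% of those of MYBR26 and 65% of those of MYBR43, and MYBR43 and MYBST1 shared 24 (60% of each). At least 1 of the 10 MYBR TFs listed 82 members (60.7%, 52.0 to 69.0), against a background of 20.6% and an expected 35.4%. The 4 with the highest counts, MYBR26, MYBR43, MYBST1 and MYBR17, a group formed after their values were seen, listed 68 members (50.4%), against a background of 10.9%. Of these 68 members, 24 had 1 of the 4, 21 had 2, 14 had 3 and 9 had all 4. The 9 members with all 4 had 11 to 20 listing TFs, COL2 listed 8 of them and COL8 listed 7.

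Some members had both COL and MYBR listings. A COL TF and at least 1 of these 4 MYBR TFs listed 50 members together (37.0%), against a background of 4.61% and an expected 9.37%. That expected share is the one other genes had for both together. It does not allow for the members' higher share of each group, 57.8% for COL and 50.4% for these 4. Whether both fell together more often than these shares alone would give was not tested. The 50 genes had a median of 15 listing TFs (range 6 to 20), and COL2 was on 38 of them. COL2 shared 22 members with MYBR26, 42.3% of those of COL2 and 64.7% of those of MYBR26, and 26 with MYBST1 (50% and 65%). COL18 was on 21 of the 50. It shared 14 of its 35 members with MYBST1, 13 with MYBR17, 9 with MYBR43 and 7 with MYBR26, the last being 20.6% of the members of MYBR26. Both counts of the joint group rest on TFs picked for high counts and are a description.

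**Figure D2:**
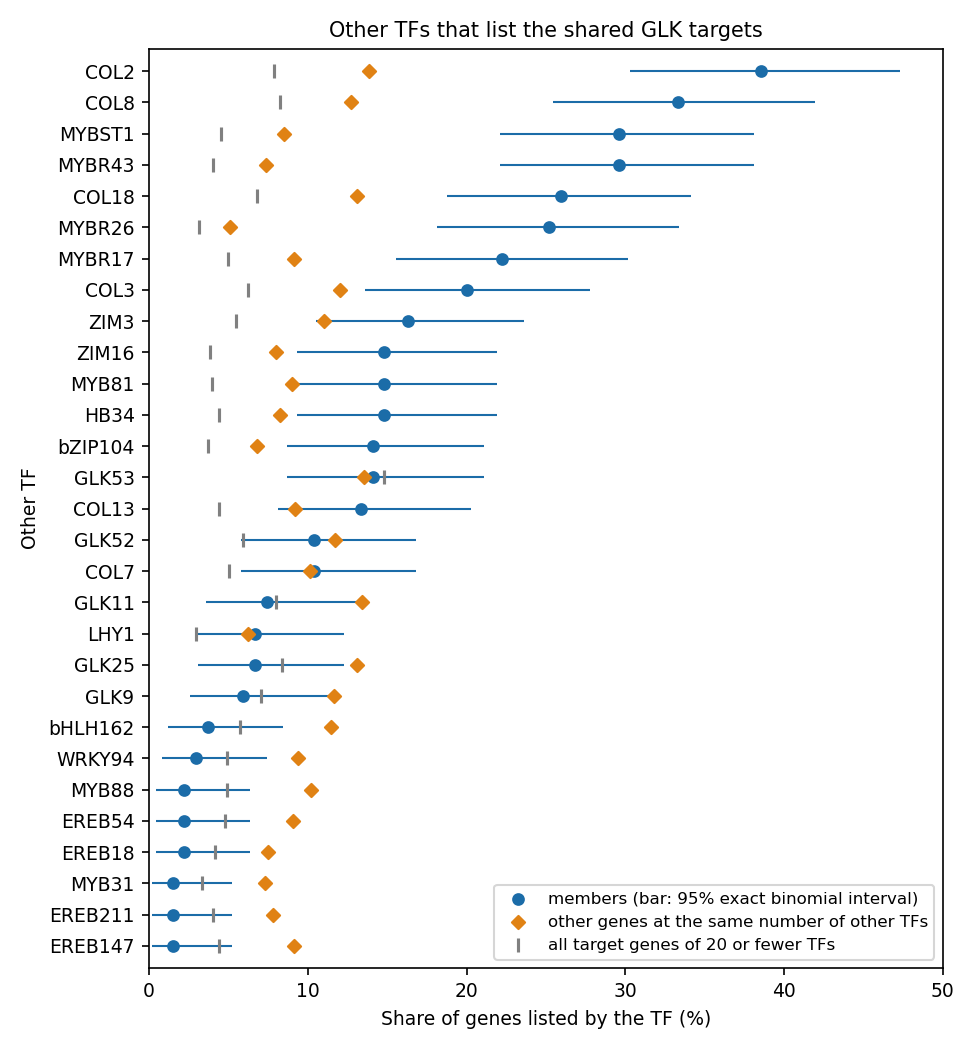
For each of 29 other TFs the blue point is the share of the 135 members it listed, with a 95% exact binomial interval, the orange diamond the share expected at the same number of other listing TFs, and the grey mark the share of all genes of 20 or fewer TFs. COL2 (38.5%), COL8 (33.3%), MYBR43 and MYBST1 (29.6% each) stand to the right of their expected shares, and EREB147, EREB211 and MYB31 stand to the left with 2 members each.

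The 5 other GLK-family TFs, which share the GARP type of DNA-binding domain, had co-listing ratios of 0.51 to 1.04 on these genes. GLK53 listed 19 members, with a background of 14.8% and a ratio of 1.04, and GLK52 listed 14, with a background of 5.9% and a ratio of 0.89. GLK11 listed 10 members (background 7.99%, ratio 0.55, interval 0.27 to 0.98), GLK25 listed 9 (background 8.38%, ratio 0.51, 0.24 to 0.94) and GLK9 listed 8 (background 7.05%, ratio 0.51, 0.22 to 0.98). At least 1 of the 5 listed 43 members (31.9%), against a background of 29.7% and an expected 36.5%. The joint ratio over all their listings was 0.70, so the share of members with another GLK TF was near the background and below the expected share.

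TFs of the ethylene-responsive element binding (EREB), DOF zinc finger and MYB families listed fewer members than expected at the same number of other listing TFs. Only the DOF share of members was below its background. Because the expected numbers are tied across TFs, these deficits cannot be read apart from the excess of the COL and MYBR TFs. At least 1 of the 14 EREB TFs listed 59 members (43.7%), against a background of 40.6% and an expected 56.4%. The 14 TFs had a joint ratio of 0.59, and 1 of them, EREB71, was above 1, with 19 members, a background of 9.05% and a ratio of 1.02. EREB147 had the lowest ratio among TFs expected to list at least 5 members, 0.16 (0.02 to 0.58), with 2 members against a background of 4.4%. EREB211 (2 members, background 4.02%, ratio 0.19), EREB54 (3, 4.78%, 0.24) and EREB18 (3, 4.14%, 0.30) were also low. Counting only pairs of 0.01 or less, the ratio of EREB211 was 0.86 and that of EREB18 was 0, so these low ratios rest on few listings. The 4 DOF TFs, all below 1 (joint ratio 0.52), together listed 23 members (17.0%, background 20.2%), DOF22 listing 8 members against a background of 11.1%. At least 1 of the 9 MYB TFs (joint ratio 0.64) listed 45 members (33.3%), against a background of 22.4% and an expected 41.9%, and MYB31 (2 members, background 3.31%, ratio 0.20) and MYB88 (3, 4.9%, 0.22) were lowest. Joint ratios below 1 were not limited to these families, with 0.69 for the 11 bHLH TFs and 0.70 for the 5 WRKY TFs. Among them WRKY94 listed 4 members (background 4.91%, ratio 0.32) and bHLH162 listed 5 (background 5.7%, ratio 0.32).

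Ratios between these ends were found for the homeobox (HB) and ZIM families. ZIM proteins include the JAZ repressors of jasmonate signalling, which act through other DNA-binding proteins. HB34 listed 20 members (background 4.43%, ratio 1.79, 1.12 to 2.66). HB38, named after its values were seen, listed 14 (background 1.97%, ratio 2.88, 1.61 to 4.67) and was expected to list 4.86. ZIM16 listed 20 members (background 3.83%, ratio 1.85, 1.16 to 2.75) and ZIM3 listed 22 (background 5.49%, ratio 1.48, 0.95 to 2.15). At least 1 HB TF listed 60 members (44.4%, background 22.5%, expected 39.5%), and at least 1 ZIM TF listed 53 (39.3%, background 15%, expected 28.7%). The family ratios were 1.33 for HB, with 6 of 7 TFs above 1, and 1.32 for ZIM, with 5 of 6. bZIP104 listed 19 members (background 3.71%, ratio 2.07, 1.28 to 3.10) in a family with a joint ratio of 1.09. MYB81 was the MYB TF that listed more than expected, with 20 members (background 3.99%, ratio 1.64, 1.03 to 2.43). LHY1, a MYB-related clock TF, listed 9 members against a background of 2.97%, a ratio of 1.07.

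**Figure D3:**
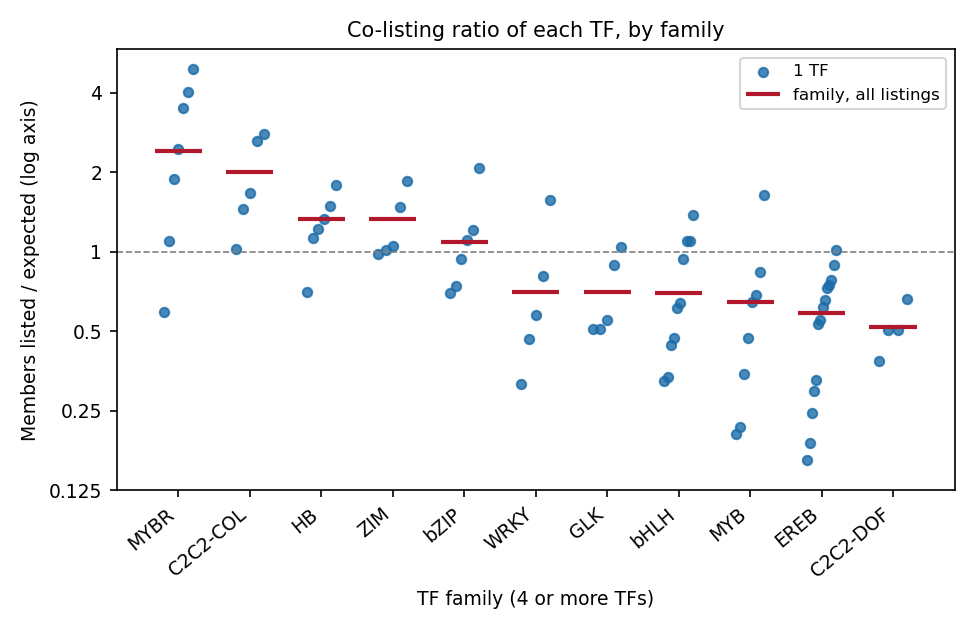
Each blue point is the co-listing ratio of 1 TF expected to list at least 5 members, on a log axis, grouped by TF family for families of 4 or more TFs, and the red line is the ratio over all listings of the family. The MYBR (2.40) and C2C2-COL (2.00) lines are the highest, and the EREB (0.59) and C2C2-DOF (0.52) lines are the lowest. The C2C2-COL family here has 5 TFs, without COL18, whose family label is Orphan.

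The excess of COL2, COL8, MYBR26 and MYBR43 listings was present in each of 3 classes by the total number of listing TFs. That number includes the GLKs, so within a class the members had fewer other TFs than genes that neither GLK listed. There were 41 members with 2 to 7 listing TFs, 48 with 8 to 14 and 46 with 15 to 20. From the lowest to the highest class, COL2 listed 17.1%, 37.5% and 58.7% of the members, against 6.01%, 16.1% and 23.3% of the other genes. MYBR26 listed 7.32%, 22.9% and 43.5% of the members, against 2.10%, 6.75% and 8.60% of the others, and MYBR43 listed 12.2%, 29.2% and 45.7%, against 2.39%, 8.06% and 15.1%. For both COL2 and MYBR26 the share in members was above that in other genes in each class. The lowest class rests on few listings, 7 of 41 members for COL2, 3 for MYBR26 and 5 for MYBR43. MYBR17 was not frequent throughout, with 0 of the 41 members in the lowest class, against 3.39% of the other genes. GLK53 listed 4.88% of the members in the lowest class, against 14.3% of the others, and 23.9% in the highest class, against 15.8%. These shares of GLK53 are 2 of 41 and 11 of 46 members. A low share of another TF in the lowest class is partly set by the rule, because the GLKs fill 2 of at most 7 listings there. The co-listing ratios were standardised by the number of other listing TFs and not by these classes, so nothing is read from the change between classes.

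**Figure D4:**
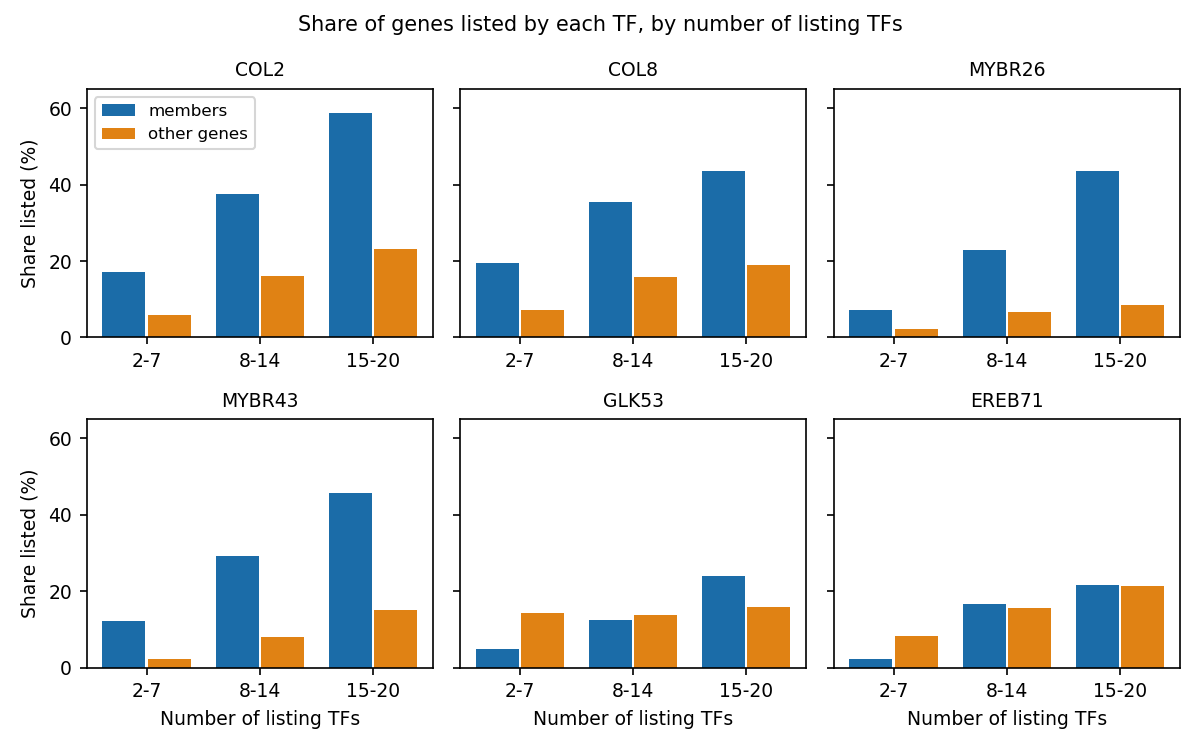
Bars give the share of genes that each of 6 TFs listed, for the 135 members (blue) and the other genes (orange), in 3 classes by the number of listing TFs, which includes the GLKs. For COL2, COL8, MYBR26 and MYBR43 the blue bar is the higher one in each class, and for GLK53 and EREB71 the order changes between classes.

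The members were next set beside genes of 20 or fewer TFs that 1 GLK listed at p of 0.01 or less and the other did not list. There were 70 such genes for GLK1, with a median of 7 listing TFs, and 174 for GLK2, with a median of 10. COL2 had a co-listing ratio of 2.79 in the members, 2.24 in the GLK1-only genes and 0.81 in the GLK2-only genes. MYBR26 had 4.92, 2.21 and 0.88 in the same order, MYBR43 had 4.02, 2.17 and 1.04, and MYBST1 had 3.50, 2.62 and 0.90. The excess of these TFs was thus largest in the members, smaller in GLK1-only genes and not seen in GLK2-only genes. MYBR26 listed only 7 GLK1-only and 9 GLK2-only genes. The sets also differed in GLK strength. The median GLK1 -log10 p was 2.75 in GLK1-only genes and 4.58 in members, and the median GLK2 -log10 p was 2.74 in GLK2-only genes and 3.95 in members. The part of that difference in the ratios was not tested. COL18 had 1.98 in the members, 1.45 in GLK1-only and 1.73 in GLK2-only genes. GLK25 had 0.51, 0.40 and 1.52, and GLK52 had 0.89, 1.37 and 1.88. At least 1 of the 11 bHLH TFs listed 43.0% of the members (background 27.5%), 11.4% of the GLK1-only genes and 87 of the 174 GLK2-only genes. With the GLK1-only and GLK2-only genes together as the reference, the ratio of the members was 2.01 for COL2, 1.80 for COL8, 1.20 for COL18, 2.53 for MYBR43 and 2.44 for MYBST1. The GLK1-only and GLK2-only sets are small, and none of these differences was tested.

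Within the members, those that COL2 listed had a median GLK1 -log10 p of 6.73 and those it did not list had 3.95. For COL8 the medians were 6.69 and 3.99, and for MYBR26 they were 5.73 and 4.26. The order was the same for MYBR43, MYBST1 and COL18, but MYBR17 had 4.28 in the members it listed and 4.59 in the rest. For GLK2 the medians were 4.12 and 3.72 for COL2, 3.80 and 4.00 for COL8, 4.16 and 3.83 for MYBR26, and 4.43 and 3.80 for MYBR17. Members that COL2 listed also had more listing TFs, a median of 15 against 9, and the part of that difference in the GLK values was not tested.

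Among the 451 shared targets of more than 20 TFs, the same TFs were closer to their expected shares. COL2 listed 71.2% of them (ratio 1.25), COL8 53.9% (1.29), MYBR43 74.1% (1.26) and MYBST1 74.5% (1.14). MYBR26 again had the highest of these ratios, with 51.4% listed, an expected 33.6% and a ratio of 1.53. Where most TFs list a gene the ratio cannot be large, so the ratios of both sets are not on an equal footing.

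No COL and no MYBR TF listed 33 of the 135 members, whereas 75.6% of the members and 33.9% of all genes of 20 or fewer TFs had at least 1. These genes had few listing TFs, a median of 5 (range 2 to 18), and a median -log10 p of 6.04 for GLK1 and 3.86 for GLK2. The 6 genes listed by the GLKs alone are among them. EREB17 (background 9.89%), EREB172 (6.32%) and EREB97 (9.94%) each listed 6 of the 33, and DOF30 (10.6%) and EREB209 (5.22%) each listed 5.

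Of the genes that the sources used here name, the light-harvesting gene Lhca (Zm00001d015385) fell outside the rule through its GLK2 p-value. GLK1 listed it at 1.4e-09 and GLK2 at 0.0191 (place 1593 of its list). Its 5 other TFs, MYBR26 (3.5e-04), COL8 (0.0028), COL2 (0.011), MYBR43 (0.027) and COL3 (0.032), were all COL or MYBR TFs with ratios above 1 in the members. The C4 gene CA1, a carbonic anhydrase, was listed by GLK1 (3.4e-04) and GLK2 (1.6e-06) but by 96 TFs in all. Neither GLK listed CA2, PEPC, PPDK, NADP-MDH, RbCS1 or RbCS2, and no TF listed NADP-ME.

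The genes of COL2 and COL7 met the rule except that they encode profiled TFs. The COL2 gene (Zm00001d033719) had 18 listing TFs and was itself a strong GLK target, with 4.6e-56 for GLK1 (place 18 of its list) and 9.2e-08 for GLK2 (place 278). The strongest TF after the GLKs was GRAS23 at 4.9e-06. The COL7 gene (Zm00001d025770) had 19 listing TFs, led by COL8 at 5.2e-08, with GLK1 at 0.0012, COL2 at 0.0020 and GLK2 at 0.0059. COL2, which listed 52 members, was thus encoded by a gene that both GLKs listed.

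Genes side by side can share 1 peak, so identifiers with consecutive numbers, which largely follow the order of genes along a chromosome, were counted. There were 6 such pairs of members and no longer run, 12 genes in all (8.89%). Among all 15710 genes of 20 or fewer TFs, 10203 (64.9%) were next to another gene of that set. That set is far larger, which by itself gives more neighbours, so nothing is read from the difference. The pairs were Zm00001d003310 and Zm00001d003311, Zm00001d011435 and Zm00001d011436, Zm00001d011826 and Zm00001d011827, Zm00001d021370 and Zm00001d021371, Zm00001d042152 and Zm00001d042153, and Zm00001d049650 and Zm00001d049651. A pair shared a median of 8.88% of the other TFs that listed either gene, against 4.35% (quartiles 0 and 10.5) over the 9039 other pairs of members. Zm00001d011826 and Zm00001d011827 shared 11 other TFs, 78.6% of those on either gene, so they may count 1 bound region more than once. A target of GLK1 or GLK2 was next in number to 51 members (37.8%), against 10.97% of all genes of 20 or fewer TFs.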

How the data were processed

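The authors aligned ChIP-seq reads of 217 libraries to B73 RefGen_v4 (Bowtie 2 2.2.5 and SAMtools 1.3, per the labels), used SPP for peak calling with input DNA as the control, required a peak to recur between replicates, and masked blacklisted regions and the locus of each TF itself. The deposited values are TIP p-values, 1 for each TF and gene (272627 in all, none above 0.05), with replicates pooled and each relative to the binding profile of its TF. No TIP version is given in the sources used here. Because the p-values of different TFs need not be on 1 scale, ranks within each list were also used. The table gives no read counts, so the depth behind a p-value is unknown.

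The table was matched to the TFs by gene identifier. A p-value of 0 (35 pairs) was set to the smallest above 0. No member had one. Shares have 95% exact (Clopper-Pearson) intervals. Expected numbers were standardised by the number of listing TFs other than GLK1 and GLK2, and the procedure was tested on simulated data. No test was made, because replicates are pooled and the members were chosen from the same p-values. The members, the lists and the alternatives were chosen with earlier results of these data known. Most genes and TFs named follow a fixed rule. It takes the 12 members with the largest summed -log10 p, the 6 leaning most to each GLK, up to 10 listed by the GLKs alone, and the 3 on either side of each p threshold. Of the other TFs it takes the 12 with the most members, the 8 highest and 8 lowest ratios among those expected to list at least 5 members, all GLK and COL TFs, MYBR26, MYBR43 and LHY1, and of the other genes Lhca and 8 C4 genes. HB38, EREB71, DOF22, MYBR32, MYBR41, MYBR64 and MYBR87, the pairs of neighbours, Zm00001d032197 and Zm00001d035317 were named after their values were seen. So were TCP23 and the TFs named on the 33 members without a COL or MYBR TF, namely EREB17, EREB172, EREB97, DOF30 and EREB209. Further TFs are named only as listing a named gene. None of the 135 members matched the RefSeq gene table of assembly NAM-5.0, so lists of photosynthesis genes could not be counted, and no sequence of a member is shown. Python 3.11.15, numpy 2.4.6, pandas 2.3.3, scipy 1.17.1 and matplotlib 3.10.9 were used.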

Additional observations from a re-analysis of the deposited data

How the results depend on the processing

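The number of members moved with the rule, from 135 to 69 with GLK p-values of 0.001 or less, 237 with every listed pair, 60 with at most 10 listing TFs and 205 with at most 30. COL2 listed 38.5% of the members, 23.0% when only its pairs of 0.01 or less were counted, where COL8 listed more, and 20% with at most 10 listing TFs, where COL8, with 15 of the 60, was the most frequent TF. The median difference of GLK1 minus GLK2 was 0.81 in -log10 p and 0.078 percentage points in rank. Of the 29 TFs followed, 17 had a ratio above 1, and 15 to 17 did under each alternative. They were not always the same TFs. Among shared targets of more than 20 TFs, COL7 (0.95) and GLK53 (0.83) were below 1, and GLK52 (1.08) and GLK25 (1.06) were above it. Many of the 29 were picked for a high or low ratio in these same data, so nothing is read from the steady count. Comparing with genes of a single GLK lowered 5 of the 29 ratios by more than their counting error. They fell to 2.01 for COL2, 1.80 for COL8, 1.20 for COL18, 2.53 for MYBR43 and 2.44 for MYBST1. Counting only pairs of 0.01 or less moved 8, among them EREB211 to 0.86, COL7 to 0.33, COL2 to 3.78 and MYBST1 to 5.19. Leaving out the standardisation moved 17. In 2 alternatives chosen after seeing the data, leaving out 1 gene of each consecutive pair moved none, and shared targets of more than 20 TFs moved 19 and gave GLK25 a ratio of 1.06, against 0.51 in the members. No paired analysis was possible because replicates are pooled in the table, and no replicate could be left out. Depth limits the values in a way that the pooled p-values do not show. The members are 135 genes seen with plasmid-expressed TFs in protoplasts, and intervals cover counting over genes only.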
